A study of Mus musculus with 18 samples.

Results

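Genes of meiotic break formation and strand exchange were followed in the testes of juvenile wild-type mice and of mice with a mutant allele of Mybl1, the gene of A-MYB, which switches on transcription in spermatocytes. The 8 genes were Spo11, Prdm9, Dmc1, Psmc3ip, Mnd1, Meiob, Brca2 and Tex15. They were chosen by name for their roles, and every probe set (a group of short probes that read 1 transcript) annotated to 1 of them alone was taken. This gave 10 of the 45037 probe sets that are not controls, with 2 each for Dmc1 and Psmc3ip and 1 for every other gene. All 10 passed the filter on low signal, and the 8 genes stand among 15307 genes with a tested probe set of their own. Whole-testis total RNA was labelled and hybridised to Affymetrix mouse arrays, 1 sample per array. Mice homozygous for that allele, repro9, gave 5 arrays at 14 days postpartum (dpp) and 5 at 17 dpp, and wild-type mice gave 3 and 5. Per the series' text, testes of the younger age are rich in early and middle pachytene spermatocytes, and those of the older age in late pachytene and diplotene cells. The labels name no strain and tie no array to 1 animal, so p-values measure only the spread between these samples.

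In meiotic prophase, SPO11 cuts both strands of the DNA at places that PRDM9, a histone methyltransferase with zinc fingers, has marked. The ends are trimmed to single strands, which RPA and the related protein MEIOB cover. BRCA2 helps to bring the meiosis-specific recombinase DMC1 onto these strands, and TEX15 is needed for that loading. DMC1 then pairs the strand with the homologous chromosome, a step that the heterodimer of PSMC3IP (also called HOP2) and MND1 stimulates. Breaks are made and loaded with recombinase in leptotene and zygotene cells and are repaired through pachytene. The 8 genes thus belong to the stages before and around those that the series' text names for testes of these ages.

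Expression is given as MAS5 signal, a linear intensity per probe set, and differences as mutant minus wild type on the log2 scale. The targeted gene Mybl1 read 68.1 to 249 in the mutants and 512 to 775 in wild type at 14 dpp, and 83.4 to 293 against 1076 to 3959 at 17 dpp. The arrays fell into 3 sets by β-actin controls, whose 3'/5' signal ratio rises when labelled RNA is short at its 5' end. Set 1 (ratio 2.31 to 2.92) held 2 mutants and 2 wild type of 14 dpp and 2 mutants and 1 wild type of 17 dpp. Set 2 (1.45 to 1.49) held 3 mutants and 1 wild type, all of 14 dpp. Set 3 (103 to 125) held the other 3 mutants and 4 wild-type arrays of 17 dpp. Values of 17 dpp are therefore given blocked on array set, within sets and without set 3. Over all genes the median difference at 17 dpp was 0.26, or 0.049 after giving all arrays a common median.

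The promoters of Psmc3ip, Mnd1 and Dmc1 are shown because the cofactors and the recombinase are set against each other in what follows. Each runs from 250 bases before to 50 after the RefSeq start site (GRCm38.p6), written 5′ to 3′ on the gene's strand, which is the minus strand for all 3. Capitals mark matches to AACNG, the core letters bound by MYB proteins, searched on both strands. The stretches are chr11:101095386-101095685 for Psmc3ip, chr3:84155737-84156036 for Mnd1 and chr15:79605060-79605359 for Dmc1.
Psmc3ip: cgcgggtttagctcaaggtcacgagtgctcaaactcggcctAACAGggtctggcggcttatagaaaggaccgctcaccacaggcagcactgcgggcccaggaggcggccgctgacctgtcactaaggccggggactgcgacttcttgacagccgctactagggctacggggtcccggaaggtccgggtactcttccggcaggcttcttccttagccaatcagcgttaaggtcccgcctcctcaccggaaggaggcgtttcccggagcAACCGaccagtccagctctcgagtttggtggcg
Mnd1: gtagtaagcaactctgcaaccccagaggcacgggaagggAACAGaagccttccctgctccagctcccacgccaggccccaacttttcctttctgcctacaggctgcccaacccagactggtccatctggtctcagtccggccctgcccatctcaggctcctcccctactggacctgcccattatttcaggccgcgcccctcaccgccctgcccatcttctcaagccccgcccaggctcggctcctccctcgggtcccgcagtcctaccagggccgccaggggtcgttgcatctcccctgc
Dmc1: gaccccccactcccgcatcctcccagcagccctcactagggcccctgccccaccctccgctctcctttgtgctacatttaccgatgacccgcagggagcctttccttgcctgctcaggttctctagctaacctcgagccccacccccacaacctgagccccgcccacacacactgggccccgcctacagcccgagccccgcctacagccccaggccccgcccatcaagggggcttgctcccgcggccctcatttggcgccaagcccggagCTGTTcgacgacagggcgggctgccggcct

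Psmc3ip held 2 matches, AACAG starting at −209 and AACCG at +18 from the start site. Mnd1 held 1, AACAG at −211, and Dmc1 held 1 on the other strand, CTGTT at +21. Brca2 held 3 and each of 2 listed Prdm9 promoters held 1; Spo11, Meiob and Tex15 had no promoter entry and were not searched. Of all 32851 RefSeq promoters of this length, 80.3% held at least 1 match and 51.3% at least 2, so the letters are common, and a match describes the sequence and is no measured site.

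At 17 dpp the 8 genes did not move together. Psmc3ip was 5.01-fold lower and Meiob 2.04-fold lower in the mutants, while Dmc1 was 1.99-fold higher and Tex15 1.76-fold higher. Spo11, Prdm9, Mnd1 and Brca2 were not called at an adjusted p under 0.05 (limma, two-sided, Benjamini-Hochberg over all tested probe sets). Calls thus stood at 4 of 8, where 7.86% of all genes were called in either direction, 5.83% lower and 2.03% higher. Blocked on array set 5 of 8 were called, the same 4 and Spo11 (lower), against 25.9% of all genes (11.4% lower and 14.4% higher). Without set 3, Psmc3ip and Spo11 were called lower and Tex15 higher, 3 of 8 against 10.1% (7% lower and 3.08% higher). The median difference of the 8 was −0.58, or 0.052 without set 3, against 0.26 over all genes. In whole-testis RNA fewer cells of a type and less RNA per cell cannot be told apart.

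At 14 dpp none of the 8 was called by limma, and Psmc3ip and Meiob had an unadjusted p under 0.05. So did 696 of the 34764 tested probe sets. At that age 0.32% of all genes were called, all lower in the mutants, and a fit blocked on array set also called none of the 8, against 0.588% of all genes. Both Psmc3ip and Meiob read lower on every mutant array than on any wild-type array at both ages. Such a gap in the lower direction was found for 4.49% of genes at 14 dpp and 4.98% at 17 dpp. The median difference of the 8 at 14 dpp was −0.12, against 0.0030 over all genes.

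**Figure D1:**
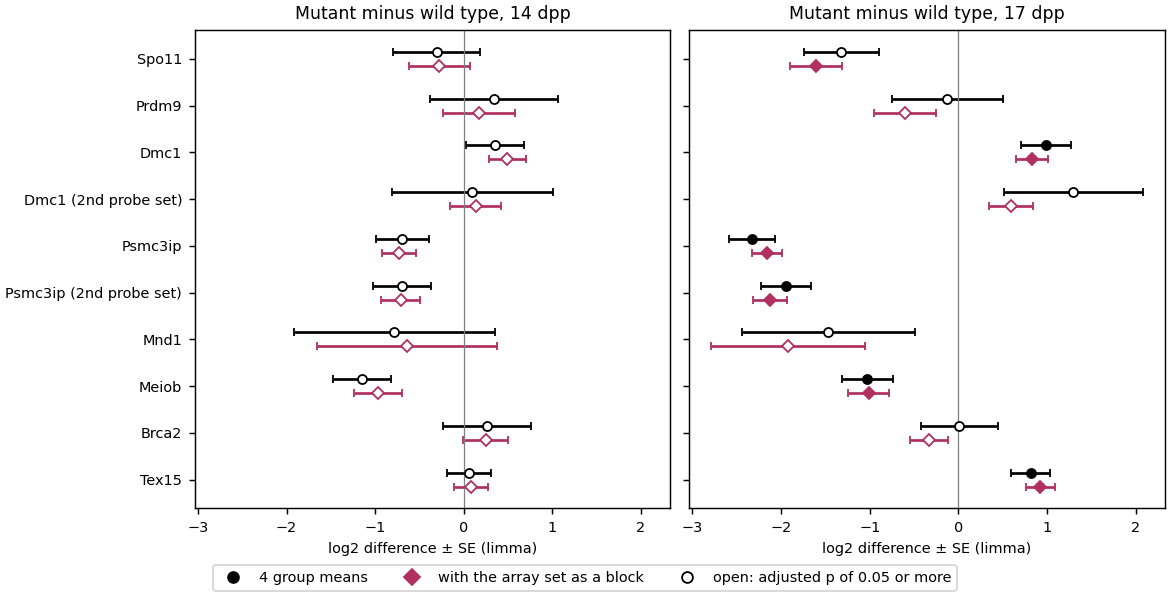
Log2 difference, mutant minus wild type, ± SE from limma for the 10 probe sets at 14 dpp (left) and 17 dpp (right), from the fit of 4 group means (black circles) and with array set as a blocking term (red diamonds); open symbols have an adjusted p of 0.05 or more. Every symbol at 14 dpp is open, and at 17 dpp Psmc3ip lies farthest to the left (−2.33) and Dmc1 and Tex15 lie to the right (0.99 and 0.81).

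The cofactor gene Psmc3ip had the largest difference of the 8 at 17 dpp. Its brighter probe set, 1442058_s_at, read 1365, 965, 2073, 2066 and 1520.0 in mutant replicates 1 to 5 of 17 dpp and 4367, 7834, 8005, 7827 and 12664 in the wild type. Every wild-type array stood above every mutant array, and the gap held inside set 1 and inside set 3. The difference was −2.33 ± 0.26 (adjusted p = 9.1e-06, limma), −2.16 blocked on array set, −1.93 within set 1 (adjusted p = 0.0029) and −2.25 within set 3. At 14 dpp the mutants read 755, 737, 785, 790.5 and 749 and the wild type 1009.8, 1362 and 1373. The mutant arrays of 14 dpp lay within a narrow band below all 3 wild-type arrays. That difference, −0.70 ± 0.30, was not called (adjusted p = 1, limma; 0.229 blocked on array set).

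The second Psmc3ip probe set, 1425271_at, gave the same direction at both ages. At 17 dpp the mutants read 1059, 985, 519, 458 and 629 and the wild type 4158, 3024, 2617, 1371 and 2955, a difference of −1.95 ± 0.28 (adjusted p = 1.7e-04, limma; 3.86-fold). At 14 dpp they read 953, 904, 1029, 937 and 917 against 1333, 1700.1 and 1585, a difference of −0.69 ± 0.33 that was not called over all arrays. No array of 14 dpp is in set 3, so leaving out set 3 kept the difference at −0.69. Only the estimate of its error and the correction over all probe sets changed. Under that fit this probe set was called and the brighter one was not. The share of all genes called at 14 dpp in that fit is not given here. The groups did not overlap at either age on this probe set. The probe sets parted on the set 3 arrays, where mutants of 17 dpp read higher than those of set 1 on 1442058_s_at and lower on 1425271_at. In Affymetrix naming the ending _s_at marks probes shared by more than 1 transcript.

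**Figure D2:**
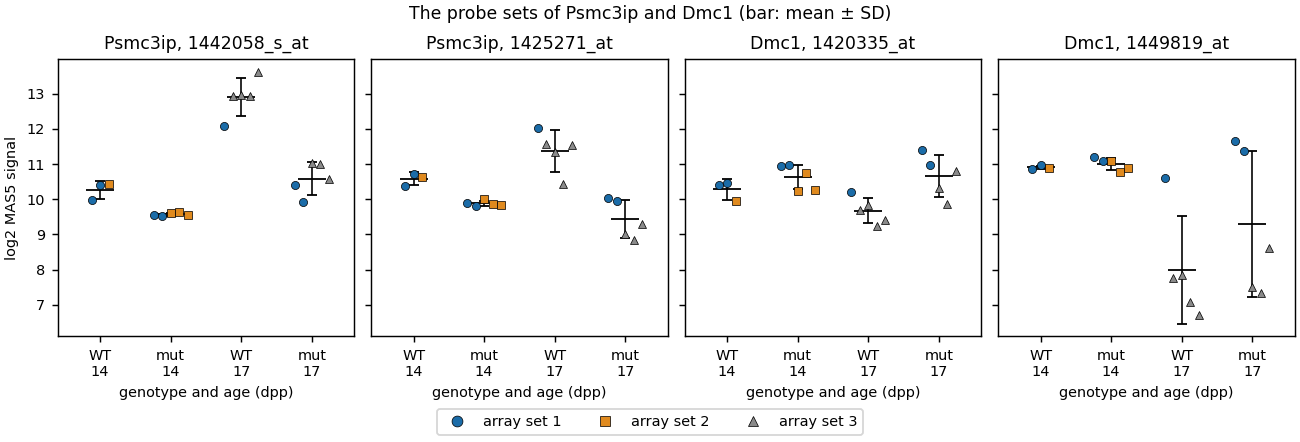
Log2 MAS5 signal of both probe sets of Psmc3ip and of Dmc1 on each array, by genotype and age, with the array set shown by colour and shape and the mean ± SD by a bar. Both Psmc3ip probe sets separate the genotypes at 17 dpp, and the Dmc1 probe set 1449819_at is low on set 3 arrays of both genotypes (104 to 391, against 1562 to 3201 in set 1 of 17 dpp).

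MND1 is the partner of PSMC3IP, and its gene was not called at either age. Mnd1 read 298, 229, 6.87, 7.58 and 283 in mutants and 238, 308, 317, 37.1 and 187 in wild type at 17 dpp. Mutant replicates 3 and 4 and wild-type replicate 4, all of set 3, lay below their array's 40th percentile, and the other mutant arrays lay within the wild-type range. The difference of −1.47 ± 0.98 was not called (adjusted p = 0.44, limma). It was 0.13 within set 1, where no array was dim, and −2.72 within set 3 (adjusted p = 0.0971), so its sign turned with the array set. At 14 dpp mutants read 289, 247, 105, 104 and 232 and wild type 272, 304 and 349.8, and the difference of −0.78 ± 1.13 was not called either. An error this wide leaves a change of the size seen in Psmc3ip not detectable in Mnd1 with all arrays.

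The recombinase gene Dmc1 differed in the opposite direction to Psmc3ip. Its brighter probe set, 1420335_at, read 2712, 1993, 1279, 927 and 1785 in mutants and 1175, 832, 908, 609 and 686 in wild type at 17 dpp. Within set 1 and within set 3 every mutant array read above every wild-type array, but across sets wild-type replicate 1 (set 1) stood above mutant replicate 4 (set 3). The difference was 0.99 ± 0.28 (adjusted p = 0.0475, limma), and 0.83 blocked on array set (adjusted p = 0.00337). Set 1 alone gave 0.98 (adjusted p = 0.23) and set 3 alone 0.78 (adjusted p = 0.0366). The call was narrow: the adjusted p rose to 0.05003 to 0.128 on leaving out any 1 array except mutant replicate 4 or wild-type replicate 1 of 17 dpp, to 0.136 without set 3, to 0.116 with array weights, to 0.178 with the mean of both probe sets and to 0.199 with a common array median (difference 0.77). At 14 dpp mutants read 1955, 1996, 1208, 1715 and 1236 and wild type 1365, 1421 and 986; the groups overlapped, and the difference of 0.35 ± 0.33 was not called.

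The second Dmc1 probe set, 1449819_at, read 3201, 2666, 182, 162 and 391 in mutants and 1562, 216, 231, 135 and 104 in wild type at 17 dpp. The values were far lower on set 3 arrays than on set 1 arrays in both genotypes, and mutants stood above wild type on the set 1 arrays. The difference was 1.30 ± 0.79 (adjusted p = 0.387, limma) over all arrays and 0.59 blocked on array set (adjusted p = 0.102, limma). Within set 3, where the genotypes overlapped, it was 0.47 (adjusted p = 0.333, limma). It was 0.90 within set 1 and without set 3, in each case from 2 mutants and 1 wild-type array of 17 dpp. Of 31 alternative settings, 30 left this probe set uncalled at 17 dpp. At 14 dpp its range was 1748 to 2359.8 in mutants and 1866 to 1999 in wild type, with a difference of 0.094 ± 0.91.

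Set on the same arrays, the log2 ratio of Psmc3ip to Dmc1 signal (brighter probe sets) shows how far the genes parted between genotypes of 1 age. Its zero has no meaning, since the probes differ. All set 3 arrays are of 17 dpp, so a change of the ratio between ages cannot be told apart from the array set. The ratio averaged −1.05 ± 0.37 (SD, n = 5) in mutants and −0.0063 ± 0.46 (SD, n = 3) in wild type at 14 dpp. At 17 dpp it averaged −0.083 ± 0.99 (SD, n = 5) in mutants, from −1.05 to 1.16, and 3.23 ± 0.86 (SD, n = 5) in wild type, from 1.89 to 4.21. The lowest wild-type array of 17 dpp was thus above the highest mutant array. On the set 1 arrays of 17 dpp alone the ratio averaged −1.02 over the 2 mutants and was 1.89 on the wild-type array. On those of 14 dpp it averaged −1.40 in mutants and −0.25 in wild type. The ratio of Mnd1 to Dmc1 averaged −4.69 ± 2.34 (SD, n = 5) in mutants and −2.23 ± 1.06 (SD, n = 5) in wild type at 17 dpp, with overlap; on set 1 it was −3.16 and −2.31.

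**Figure D3:**
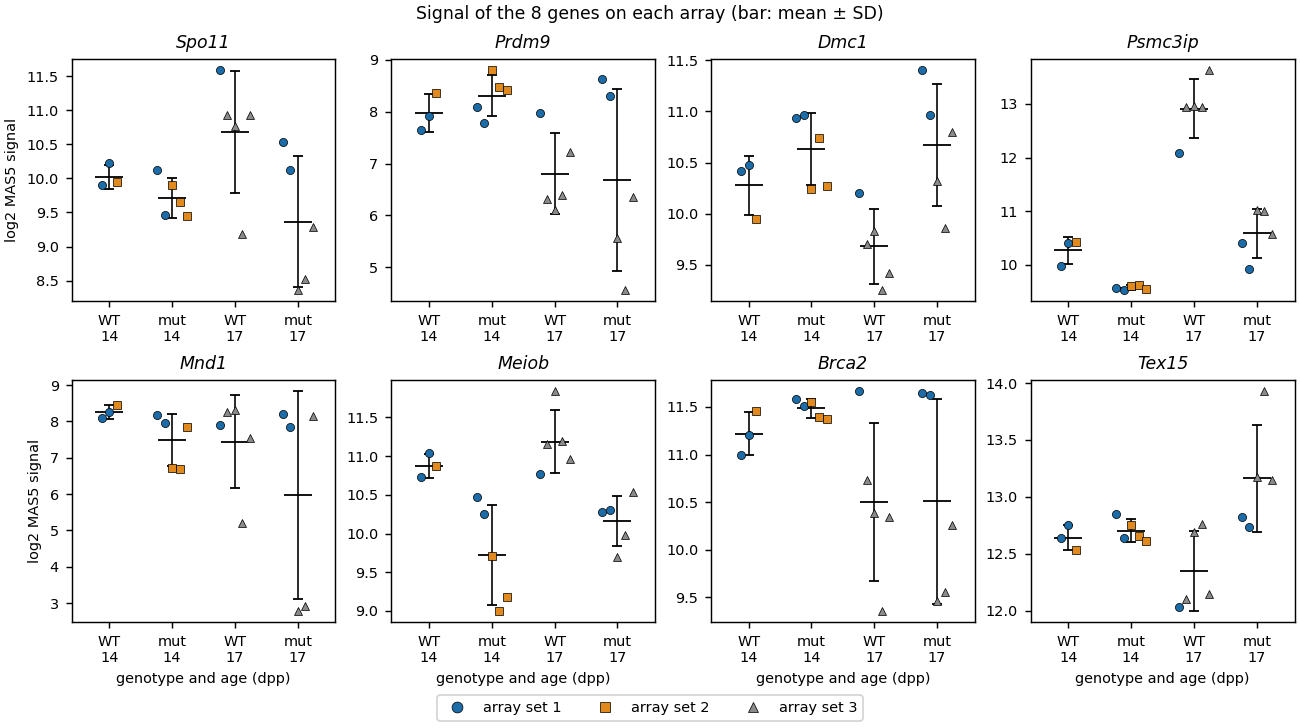
Log2 MAS5 signal of each of the 8 genes (brightest probe set) on each of the 18 arrays, by genotype and age in dpp, with the array set shown by colour and shape and the mean ± SD by a bar. Psmc3ip and Meiob separate the genotypes at both ages without overlap. At 17 dpp Brca2 and Prdm9 spread widely by array set, and Mnd1 spreads widely inside set 3 (6.87 to 317).

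Meiob, whose product covers single-stranded DNA with SPATA22, read lower in mutants at both ages. At 17 dpp mutants read 1246, 1260.0, 828, 1011 and 1479 and wild type 1747, 2271, 3669, 2349.6 and 2003, without overlap. The difference was −1.03 ± 0.29 (adjusted p = 0.0429, limma), −1.01 blocked on array set (adjusted p = 0.00544) and, on set 3 alone, −1.22 (adjusted p = 0.00425). Within set 1, and so without set 3, it was −0.48 (adjusted p = 0.755 and 0.675). At 14 dpp mutants read 1426, 1219, 840.3, 511 and 583 and wild type 1694, 2095 and 1865, again without overlap. Mutant replicates 3 to 5 of set 2 gave the lowest of these values. That difference, −1.15 ± 0.33, was not called (adjusted p = 0.569, limma), and it was −0.51 within set 1 and −1.57 within set 2. The call at 17 dpp was lost, with an adjusted p of 0.0545 to 0.123, on leaving out mutant replicate 3 or any wild-type array of 14 dpp, or mutant replicates 1 to 4 or wild-type replicates 2 to 5 of 17 dpp. It was also lost with quantile normalization (−0.96, adjusted p = 0.0867), with array weights (−1.25, 0.0977), with no filter on low signal (0.0535) and on the arrays of the 17 dpp groups alone (0.0816).

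TEX15 and BRCA2 act in recombinase loading. Tex15 read 7242, 6803, 9238, 15619 and 9095 in mutants and 4184, 4414, 6618, 6946 and 4524 in wild type at 17 dpp. Mutants stood above wild type within set 1 and within set 3, with overlap across sets only between mutant replicate 2 (set 1) and wild-type replicate 4 (set 3). The difference was 0.81 ± 0.22 (adjusted p = 0.0318, limma), 0.92 blocked on array set (adjusted p = 7.3e-04) and 0.60 with a common array median (adjusted p = 0.285). Set 1 alone gave 0.75 (adjusted p = 0.364) and set 3 alone 0.99 (adjusted p = 0.0056). The adjusted p was 0.0591 and 0.0545 without mutant replicate 3 or 4, and 0.0849 and 0.0937 without wild-type replicate 2 or 5. At 14 dpp the range was 6249 to 7385 in mutants and 5948 to 6887 in wild type, a difference of 0.059 ± 0.25, or −0.059 with a common median. Brca2 ranged over 703 to 3215 in mutants and 655 to 3256 in wild type at 17 dpp, and over 2646 to 3076 and 2044 to 2810.5 at 14 dpp. Its differences, 0.011 ± 0.43 at 17 dpp and 0.26 ± 0.50 at 14 dpp, were not called, and the first was −0.33 blocked on array set and −0.20 with a common median.

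Of the genes that make and place the breaks, Spo11 averaged lower in mutants of 17 dpp in both array sets of that age. The mutants read 1490.0, 1117, 328, 367 and 621 and the wild type 3087, 1949, 1744, 584 and 1955. Wild-type replicate 4 (set 3), which read below 3 of the mutant arrays, made the groups overlap, and on the set 1 arrays alone they did not. The difference of −1.32 ± 0.43 was not called over all arrays (adjusted p = 0.0875, limma). Blocked on array set it was −1.60 ± 0.29 and was called (adjusted p = 9.7e-04), as it was within set 3 (−1.74, adjusted p = 0.00629) and without set 3 (−1.26, adjusted p = 0.0315). It was also called with quantile normalization (−1.32, adjusted p = 0.0184), a common array median (−1.53, 0.0392) and array weights (−1.56, 0.0300). Without mutant replicate 1 or wild-type replicate 4 the adjusted p was 0.0302 or 0.0116, and without wild-type replicate 5 it was 0.197 (limma). Of 32 alternative settings, 23 left Spo11 at 17 dpp uncalled. Within set 1 the difference was −1.26, from 2 mutants and 1 wild-type array. The value without set 3 rests on the same arrays of 17 dpp. At 14 dpp mutants read 1113, 706, 956, 808 and 695 and wild type 956, 1194 and 989.6, with overlap and a difference of −0.31 ± 0.49 that was not called. Prdm9 was a dim probe set, with 23.5 to 395 in mutants and 68.8 to 253 in wild type at 17 dpp and with 3 of 5 mutant arrays above the 40th percentile. Its difference was −0.12 ± 0.62 at 17 dpp (0.48 within set 1, −1.02 within set 3) and 0.34 ± 0.72 at 14 dpp (219 to 447 against 199 to 329.9), and none of these was called.

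Across ages, Psmc3ip alone of the 8 brightest probe sets passed in wild type. It was 6.23-fold higher at 17 than at 14 dpp (2.64 ± 0.30, adjusted p = 7.0e-05, limma), without overlap (7.74% of genes were higher at 17 dpp without overlap), where 7.06% of all genes were called higher and 18.9% lower at 17 dpp. Over all genes the median age difference in wild type was −0.41, or 0.17 with a common array median, under which Psmc3ip rose by 3.22. All set 3 arrays are of 17 dpp, and within set 1 the rise was 1.897 (adjusted p = 0.00851), from 2 arrays to 1. Blocked on array set it was 2.01, and Spo11 was then also higher at 17 dpp (1.76, adjusted p = 0.0188), with 4.82% of all genes called higher. Without set 3, Psmc3ip (1.82) and Spo11 (1.57) were called higher and Tex15 (−0.61) lower, where 6.91% and 6.71% of all genes were. In the mutants 4 of the 8 had an unadjusted p under 0.05 (limma), as did 10248 of the 34764 tested probe sets. None of the 8 was called by limma, where 1.76% of all genes were. Psmc3ip came nearest there, 1.01 ± 0.26 (adjusted p = 0.0512) without overlap, a gap 2.75% of genes showed in that direction, and 0.58 blocked on array set (adjusted p = 0.306). Its second probe set gave 0.80 ± 0.33 in wild type (adjusted p = 0.0844, limma), or 1.53 with the block (adjusted p = 0.00267, limma). In mutants that probe set gave −0.46 ± 0.28 over all arrays, but 0.11 with the block and 0.14 within set 1. Dmc1 did not pass in either genotype, with −0.60 ± 0.33 in wild type and 0.039 ± 0.28 in mutants on its brighter probe set. Its second probe set was called lower at 17 dpp in wild type (−2.91 ± 0.91, adjusted p = 0.0324), but its difference was −0.31 within set 1 and −0.14 with the block.

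Ordered by group mean on the brightest probe set, Psmc3ip signal was lowest in mutants of 14 dpp, then in wild type of 14 dpp, mutants of 17 dpp and wild type of 17 dpp. The middle groups overlapped. On its second probe set mutants of 17 dpp were lowest (690), then mutants of 14 dpp (947), wild type of 14 dpp (1532) and wild type of 17 dpp (2660). The order for Meiob was mutants of 14 dpp, mutants of 17 dpp, wild type of 14 dpp and wild type of 17 dpp, with overlap between neighbours of the same genotype. For Dmc1 it was wild type of 17 dpp, wild type of 14 dpp, then the mutants of 14 and 17 dpp, and each pair of neighbours overlapped. The second Dmc1 probe set was lowest in wild type (256) and mutants (629) of 17 dpp, then in wild type (1920) and mutants (2050) of 14 dpp. Tex15 took its lowest mean in wild type of 17 dpp, then wild type and mutants of 14 dpp, and its highest in mutants of 17 dpp, with overlap between neighbours of 14 dpp and between the ages in each genotype. For Spo11 the order was mutants of 17 dpp, mutants of 14 dpp, wild type of 14 dpp and wild type of 17 dpp, and for Brca2 wild type and mutants of 17 dpp, then wild type and mutants of 14 dpp. Prdm9 and Mnd1 were lowest in mutants of 17 dpp and next in wild type of 17 dpp. In these 4 genes each group overlapped its neighbours. The order of the ages turned with the array set in several cases, where the age difference (17 minus 14 dpp) took the opposite sign when blocked on array set: for Spo11 in mutants (−0.35 over all arrays, 0.43 blocked), and for Brca2 in wild type (−0.72 and 0.67) and in mutants (−0.97 and 0.090). The same held for Prdm9 in wild type (−1.17 and 0.94) and in mutants (−1.63 and 0.17), for Mnd1 in wild type (−0.82 and 0.83) and for Meiob in mutants (0.43 and −0.026). On the second probe sets it held in mutants for Psmc3ip (−0.46 and 0.11) and for Dmc1 (−1.70 and 0.31).

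Whether the genotype difference itself changed between ages was tested as an interaction. None of the 8 passed (limma), while 0.359% of all genes did. Psmc3ip and Tex15 had an unadjusted p under 0.05 (limma), as did 1951 of the 34764 tested probe sets. For Psmc3ip the difference was more negative at 17 dpp, by −1.63 ± 0.40 (adjusted p = 0.128), and blocked on array set it was called, −1.43 (adjusted p = 0.00797), 1 of 8 against 1.89% of genes. Without wild-type replicate 1 of 17 dpp it was −1.83 (adjusted p = 0.0373) and was called. The second probe set gave −1.25 ± 0.43 (adjusted p = 0.529; −1.42 with the block, adjusted p = 0.0194). The interaction was 0.64 ± 0.43 for Dmc1, 0.76 ± 0.33 for Tex15, 0.12 ± 0.44 for Meiob and −1.01 ± 0.65 for Spo11.

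Of 15 other genes of break formation and resection, 11 had a tested probe set of their own, and limma called none at 14 dpp (0 at an unadjusted p under 0.05) or at 17 dpp (4 at an unadjusted p under 0.05). At 17 dpp 6728 of the 34764 tested probe sets reached that unadjusted p. The median difference of the 11 genes at 17 dpp was 0.46, or 0.23 after quantile normalization, and 9 of 11 were above 0, against a median of 0.26 over all genes. Blocked on array set 4 were called higher in mutants (14.4% of all genes were): Hells (0.71, adjusted p = 0.00345), a chromatin remodeller that works with PRDM9, Rad50 (0.53, 0.0133), of the end-trimming complex, Atm (0.58, 0.0393), the kinase that answers breaks, and Mei4 (0.88, 0.0456), of the break machinery; these 4 were picked out for that call. Without set 3 none of the 11 was called. Of 26 other genes of strand exchange and loading, 21 were tested; none was called at 14 dpp (0 at an unadjusted p under 0.05, limma) and 3 were called lower and none higher at 17 dpp, where 5.83% and 2.03% of all genes were. With the block 5 of the 21 were called lower, against 11.4% of all genes, the additions being Hsf2bp (−0.90, adjusted p = 0.0069) and Swi5 (−0.82, adjusted p = 0.0090). The median of the 21 at 17 dpp was 0.096, or −0.0036 after quantile normalization and −0.19 without set 3.

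Fignl1 encodes an ATPase that takes recombinase filaments apart. Fignl1 read 2345 to 3924 in mutants, with a median of 2626, and 4184 to 8898 in wild type, with a median of 6943, at 17 dpp. The groups did not overlap, and the difference was −1.24 ± 0.22 (adjusted p = 0.00118, limma; −0.80 and 0.0944 without set 3); its dim second probe set gave −0.48 and was not called. Rad54b, a DNA translocase of strand exchange, read 46.1 to 314 in mutants and 232 to 682 in wild type, with overlap, and the difference was −1.45 ± 0.41 (adjusted p = 0.0474, limma). That call was lost, with an adjusted p of 0.0607 to 0.112, without any 1 array other than mutant replicate 1 or 2 or wild-type replicate 4 of 17 dpp, and it was −1.27 with 0.0126 without set 3. Rad51ap1, whose product aids strand invasion, read 1179 to 1986 against 2048 to 4079, a difference of −0.90 ± 0.23 (adjusted p = 0.0294, limma), while its other 3 probe sets gave 0.24, 0.017 and −0.55 and were not called. It was −0.72 without set 3 (adjusted p = 0.240), and the adjusted p was 0.0567 to 0.101 without mutant replicate 1 or 2 or wild-type replicate 2, 3 or 5 of 17 dpp.

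**Figure D4:**
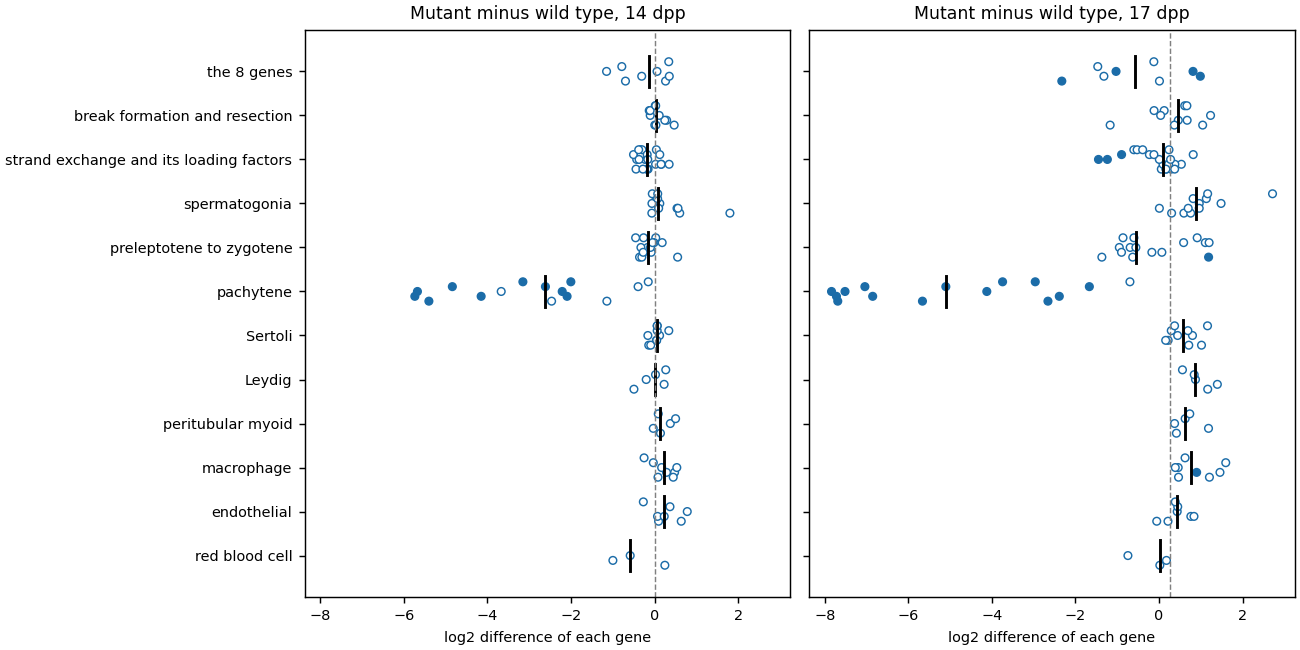
Log2 difference, mutant minus wild type, of each tested gene (points; filled where the adjusted p is under 0.05) in the 8 genes, the 2 other pathway lists and the marker lists, at 14 dpp (left) and 17 dpp (right); bars are list medians and the dashed line is the median of all genes. The pachytene markers lie far to the left at both ages (medians −2.61 and −5.10), and at 17 dpp the 8 genes spread to both sides of the dashed line.

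Markers of other germ cell stages and of somatic cells were compared in the same way. The median difference over all genes was 0.0030 at 14 dpp and 0.26 at 17 dpp. Outside the pachytene list no marker was called at 14 dpp, and few were at 17 dpp. Of 15 pachytene markers 10 were called lower in mutants at 14 dpp and 14 at 17 dpp, with medians of −2.61 and −5.10. Of all genes 0.32% and 5.83% were called lower at these ages. At 17 dpp their summed signal was 5388 to 6995 on mutant arrays against 98175 to 203513 on wild-type arrays, and at 14 dpp it was 4328 to 5697 against 18018 to 26834. Among 12 tested spermatogonial markers none was called at 17 dpp. An unadjusted p under 0.05 (limma) was reached by 7 of the 12, and by 6728 of the 34764 tested probe sets. The median of these markers was 0.89 and their summed signal 7782 to 16670.2 in mutants and 3527 to 9536 in wild type. Of 15 markers of preleptotene to zygotene cells, the stages in which recombinase is loaded, Scml2 was called higher (1.19 ± 0.33, adjusted p = 0.0434, limma) and none lower. Of all genes 2.03% were called higher and 5.83% lower. The median of the 15 was −0.55, or −0.078 without set 3, with sums of 62038 to 111997 in mutants against 68887 to 134402 in wild type. In the blocked fit 4 of these 15 were called higher and 5 lower, where 14.4% and 11.4% of all genes were. The Sertoli list (10 genes) had a median of 0.57 and sums of 56544 to 79187 against 40927 to 61755, with none called and 3 at an unadjusted p under 0.05. Medians were 0.87 for 5 Leydig genes, 0.63 for 5 peritubular myoid genes and 0.76 for 8 macrophage genes. For 7 endothelial genes the median was 0.44 and for 3 red blood cell genes 0.020. Of the macrophage genes Csf1r was called higher (0.90, adjusted p = 0.0375, limma), where 2.03% of all genes were. In the same blocked fit 4 spermatogonial, 4 Sertoli, 3 macrophage and 1 peritubular myoid gene were called higher, where 14.4% of all genes were. Without set 3, 3 spermatogonial and 2 macrophage genes were called higher and no Sertoli gene, where 3.08% of all genes were. These values stand beside the lower Psmc3ip and Meiob and the higher Dmc1 and Tex15 of the mutants, and their part in those results was not tested.

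The genes most like Psmc3ip, by Pearson correlation of log2 signal over the 18 arrays after each array set's mean was taken off, were Ptpn20 (0.991), 1700019A02Rik (0.985), Irak1bp1 (0.981), Agbl5 (0.979) and BC051142 (0.973). All 5 were called lower in mutants at 17 dpp, where 5.83% of all genes were, by differences of −1.94 to −3.69 against the −2.33 of Psmc3ip. Those most like Dmc1 were Acot13 (0.926), Fmr1nb (0.919), Cacul1 (0.898), St6gal1 (0.891) and Taf13 (0.891), with differences of 0.51 to 1.37 at 17 dpp, of which Fmr1nb was called (adjusted p = 0.0483, limma). The points share genotype, age and array scaling, so these values describe likeness over these arrays only. Genes picked for following Psmc3ip or Dmc1 over both genotypes take the same direction by that choice. Their calls are therefore no separate result.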

How the data were processed

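Whole-testis RNA of 18 samples in 4 groups was hybridised to Affymetrix arrays. The authors deposited MAS5 signal intensity (linear), per the submitters' processing notes, and the series' text names GCOS. Set 3 had a trimmed mean of 395, the other arrays 500; no scaling was added.

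The 64 control probe sets were left out, which kept 45037 of 45101, and 34764 were tested: those that exceeded the 40th percentile of the array they were read on, for 3 or more arrays. Genes took the brightest tested probe set annotated to them alone (34945 had 1 gene, 932 several, 9160 none). The model, on log2 signal, was run in limma 3.58.1 under R 4.3.3 (1 mean per group, empirical Bayes with trend), two-sided, Benjamini-Hochberg over all 34764, threshold 0.05; ± is the SE unless SD is named. Where a set held 1 array of a group, its spread was taken from the other groups. Other scalings, filters, models and subsets of arrays were tried (closing section). The number of arrays limits precision.

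Array sets were cut at actin ratios of 1.9 and 10. Members, lists and array sets were chosen with earlier results of these data known. Named were all members, called pathway genes, called marker genes (at most 3 per list) and the 5 genes most like Psmc3ip and Dmc1. No pair of arrays was identical. Same-numbered samples correlated at 0.283 to 0.385 at 14 dpp, where each pair shared an array set, and at −0.227 to 0.777 at 17 dpp, and the latter were not treated as pairs; a replicate block was run for both ages. Promoters are from RefSeq (GRCm38.p6); 5 of 8 genes matched.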

Additional observations from a re-analysis of the deposited data

Results flagged for a closer look

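Of 30 groups of 5 arrays examined among the members' probe sets, 1 held an array far from the rest. Mnd1 read 37.1 on wild-type replicate 4 of 17 dpp, a set 3 array, where the next array read 187 and the highest 317. On the log2 scale the gap was 0.755 of the group's range. Chance alone flags about 1 group in 20 under this criterion.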

How the results depend on the processing

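The 4 calls at 17 dpp became 2 with no filter on low signal, and 1 (Psmc3ip) within set 1, on the arrays of both 17 dpp groups alone and in an unmoderated model at 0.025. They ranged from 1 to 4 over single arrays left out. Those at 14 dpp became 2 (Psmc3ip and Meiob) with array weights and stayed at 0 over single arrays left out. The interaction called 1 with the array set as a block, with array weights and with the mean of a gene's probe sets, and 0 to 1 over single arrays left out. The age comparison in wild type called 2 with the array set as a block, 3 without set 3, 4 with array weights and 2 with the mean of probe sets, and 1 to 1 over single arrays left out. In mutants it called 1 with quantile normalization, a pseudocount of 16 or the 60th percentile as filter, 2 with a common median, 4 with array weights, and 0 to 3 over single arrays left out. Psmc3ip at 17 dpp was called under all of its 32 alternatives. Shares of all genes were counted for the main fit, the array set block, the subset without set 3 and the replicate block only. For the other settings, a general change in calls cannot be told from one in these genes. The causes were not tested.

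With the replicate number as a replicate block, 5 of the 8 were called at 17 dpp, where Spo11 (−1.32, adjusted p = 0.0113, limma) was added, against 14.9% of all genes, and none at 14 dpp or in the interaction, where 0.137% and 0.15% of all genes were. The age comparisons could not be fitted with that block, since numbers are shared only within an age.

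Signs turned for uncalled values. At 14 dpp, Brca2 was −0.016 within set 2 and Tex15 −0.059 with a common median. At 17 dpp, Prdm9 was 0.48 and Mnd1 0.13 within set 1 and without set 3, and Prdm9 ran from −0.61 to 0.41 over single arrays left out. Brca2 at 17 dpp was −0.012 with quantile normalization, −0.20 with a common median and with array weights, −0.33 with the array set as a block, −0.030 within set 1 and without set 3, −0.45 within set 3, and −0.27 to 0.30 over single arrays left out. In the interaction, Prdm9 was 0.33 within set 1, 0.14 without set 3 and −0.95 to 0.069 over single arrays left out; Mnd1 was 0.24, 0.92 and −1.24 to 0.12. Meiob was −0.048 with the array set as a block, −0.30 with the replicate block and −0.061 to 0.31 over single arrays left out, and Brca2 ran from −0.54 to 0.041. Low signal over background limits Prdm9 and Mnd1.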
